A study of Mus musculus with 4 samples.

Results

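The comparison of mouse oocytes with zygotes covers the first hours after fertilization. It used 19 of the 161 single cells in the gene and isoform tables, namely the 10 cells whose column names call them oocytes and the 9 called zygotes. The females were C57BL/6J, 6 to 8 weeks old and superovulated, and the zygotes came from mating them with DBA/2NCrl males (the labels give DBA/2J x C57BL/6J for all samples). The oocytes were metaphase II eggs taken from unmated females 20 h after human chorionic gonadotropin (hCG), the hormone that triggers ovulation, and the zygotes were taken 22 to 24 h after hCG. Each cell was lysed singly and its polyadenylated RNA was captured by oligo-dT, given a cell barcode and a unique molecular identifier (UMI), and its cDNA was sequenced whole by the PacBio method HIT-scISOseq. The cells came from 3 sequencing runs: run 1 held oocytes 1 to 5 and zygotes 1 to 4, run 2 held oocyte 6 and zygotes 5 and 6, and run 3 held oocytes 7 to 10 and zygotes 7 to 9. Which female gave which cell is not given in the sources used here, so the spread between cells may hold less than the spread between animals.

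The fully grown oocyte stops transcription, and the egg then lives on RNA that it stored. Meiotic maturation and fertilization are known to act on this store in opposite ways: the CCR4-NOT complex and its adaptor BTG4 shorten poly(A) tails and clear one set of messages, while cytoplasmic polyadenylation lengthens the tails of dormant messages that are then translated. Fertilization ends the metaphase II arrest, remodels the sperm chromatin and begins a minor wave of transcription before the first cleavage. Since capture relied on the poly(A) tail, a change in the number of RNA molecules and a change in how well their tails were captured cannot be told apart in these values.

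The 3′ ends of some isoforms carry the main finding on isoforms and are shown first. Each line gives the isoform, its gene and a stretch of 30 bases on the transcript strand, with GRCm38/mm10 coordinates. Capitals mark the last polyadenylation signal, AATAAA or ATTAAA, in the final 100 bases. Where there is none, the final 30 bases of the isoform are given in lower case. The first 4 isoforms were lower in zygotes and the next 6 were higher.
Pfdn4 PB.45537.2, chr2:170519036-170519065, plus strand: ttatgtcatgttATTAAAatcggttaaaca
Gdpd1 PB.13093.21, chr11:87033893-87033922, minus strand: ggtctaaattgtAATAAAgttttccaagaa
Bub1b PB.43301.182, chr2:118641559-118641588, plus strand: tgtgtattttatAATAAAatagtttttgtt
H3f3b PB.14747.101, chr11:116022857-116022886, minus strand: caacatttttaaATTAAAtgttttacattc
Elobl PB.13219.4, chr11:88964664-88964693, minus strand: tttaaaataaatATTAAAtaaccctaaaag
Sec22a PB.30057.14, chr16:35313397-35313426, minus strand: acatgattcatttgactattgtggtcttcc
Aspm PB.3756.15, chr1:139494061-139494090, plus strand: aaatacagtatgataaatccctataatgtc
Lsm10 PB.53429.8, chr4:126098554-126098583, plus strand: tttctcataaaaccaaacttggatacacac
Spin1 PB.20204.80, chr13:51149570-51149599, plus strand: gtatctatatagctacctgtctagatctgc
Ooep PB.77012.90, chr9:78377387-78377416, minus strand: tataaacacttgagtattcagttgatggtt
The 4 isoforms that fell hold a signal near their end. Of the 6 that rose, the Elobl isoform holds one and the other 5 hold none in their final 100 bases. These isoforms are examples, and their split does not measure the shares among all called isoforms, which are given below. PB.33295.14 of Zfp57, PB.20204.74 of Spin1 and PB.37811.1 of Cfl1, also among the largest rises, are not shown and hold a signal.

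The cells held between 166731 and 389775 UMIs assigned to genes. The identity of the cells was checked first. The summed level of 10 oocyte markers was 3635 ± 340 copies per 100,000 UMIs (SD, n = 10) in oocytes and 2711 ± 720 (n = 9) in zygotes. Of 15 cumulus and granulosa cell markers, 10 were in the table, and their summed level lay between 4.42 and 9.81 copies in oocytes and between 3.61 and 12.1 in zygotes. Of 10 markers of sperm and late spermatids 6 were in the table, at 0 to 1.68 copies in oocytes and 0 to 2.52 in zygotes. The sperm protamine gene Prm1 was at 0 in all 19 cells, which over their 4463647 UMIs allows up to 0.0672 copies per 100,000 (3 counts of the total). The protamine gene Prm2 was detected at both stages. Its isoform PB.28945.1 was at a mean of 0.722 copies in oocytes and 1.09 in zygotes (limma adjusted p = 0.908).

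Some cells stood apart from their label, which bears on everything that follows. The genes called between stages in run 1 alone, 717 higher and 315 lower in zygotes, were followed in every cell as the mean of log2(value + 1). For the 717 genes this mean was between 1.79 and 1.94 in the run 1 oocytes and between 2.98 and 3.16 in the run 1 zygotes, which is how the genes were chosen. In cells that played no part in the choice, it was between 1.67 and 1.83 in the run 3 oocytes and 3.30 and 3.16 in the run 2 zygotes, but only 2.06, 2.02 and 2.43 in the run 3 zygotes. The single oocyte of run 2, oocyte 6, was at 2.74. For the 315 genes lower in run 1, oocyte 6 was at 3.93, between the run 1 oocytes (4.31 to 4.44) and the run 1 zygotes (3.36 to 3.59), and the run 3 zygotes were at 4.33, 4.25 and 4.11. Oocyte 6 thus lay between the labelled stages. The run 3 zygotes lay nearer to the oocytes than to the other zygotes, save that zygote 9 was about midway for the 717 genes. Whether this is a matter of the hour of collection, of fertilization or of the label was not tested. All comparisons below were fitted with run as a term, and the counts were 692 higher and 215 lower without oocyte 6.

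**Figure D1:**
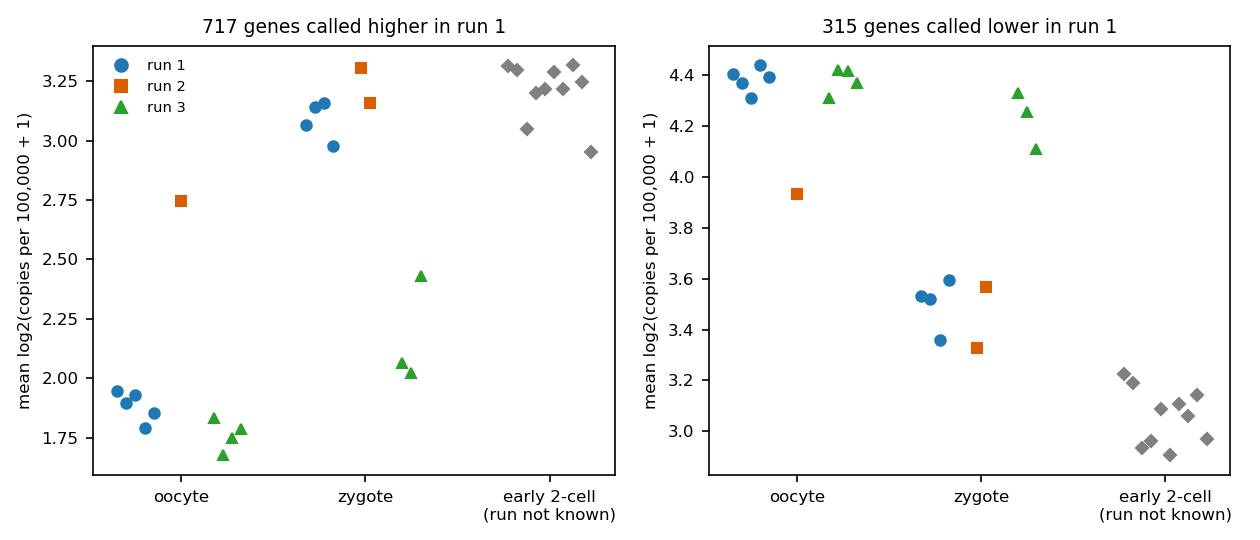
Mean log2(copies per 100,000 + 1) of the 717 genes called higher (left) and the 315 called lower (right) in run 1 zygotes, one point per cell, with colour and shape giving the run; run 1 cells chose the genes. Oocyte 6 (orange) lies between the stages, the run 3 zygotes (green) lie close to the oocytes, and the early 2-cell blastomeres (grey) lie at or beyond the run 1 and run 2 zygotes.

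Of 20171 genes in the table, 7887 had at least 1 copy per 100,000 UMIs in at least 4 of the 19 cells and were tested. At a limma adjusted p under 0.05, 1013 genes (12.8%) changed: 752 (9.53%) were higher in zygotes and 261 (3.31%) were lower. With every cell thinned to 166731 UMIs, 542 were higher and 206 were lower. The rises were larger, with 181 genes up by more than 2-fold against 12 down by more than 2-fold, while the median gene of all tested moved by 0.09 on the log2 scale. The genes that rose started from low levels and those that fell from high ones: the median level in oocytes was 1.94 copies for the former, 17.5 for the latter and 2.57 for all genes tested. Among the 3186 genes at a mean level under 2 copies, 248 were higher and 15 lower. Among the 144 genes at 100 copies or more, 11 were higher and 24 were lower. The values are shares of a cell's UMIs, so a share also falls where others rise. Of the called genes, 617 were higher and 199 were lower in each of the 3 runs. The calls came from these same cells, so this agreement is partly set by the choice of genes, and run 2 held 1 oocyte.

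**Figure D2:**
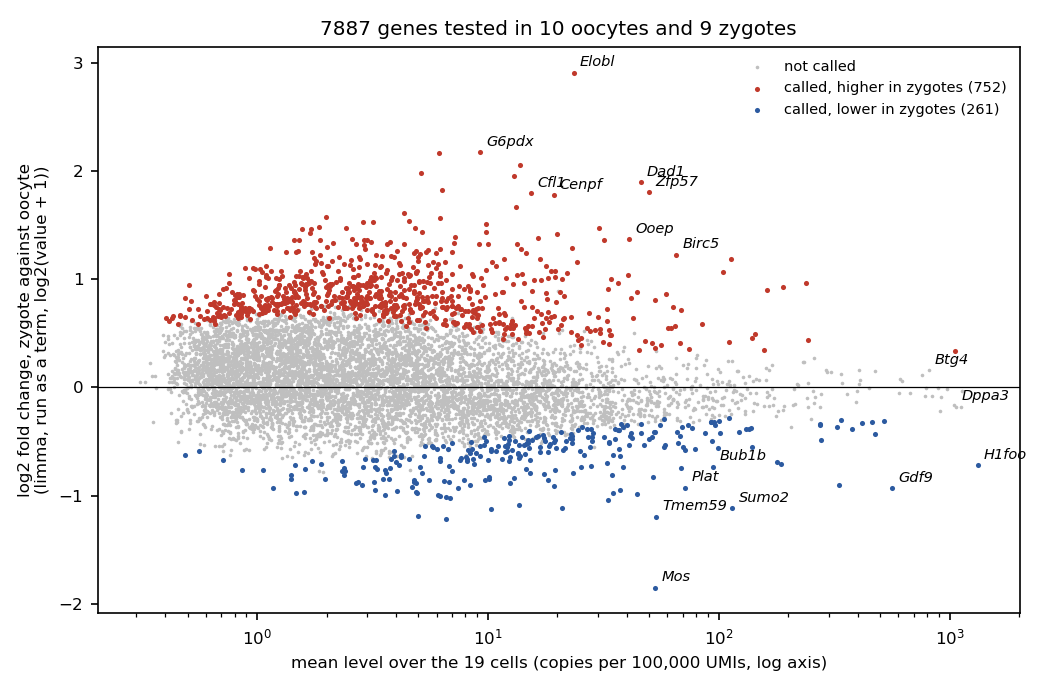
Log2 fold change from oocyte to zygote (limma, run as a term) against the mean level over the 19 cells on a log axis, one point per gene tested. The 752 genes called higher (red) lie mostly at low levels and the 261 called lower (blue) reach the most abundant genes, such as H1foo and Gdf9.

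The largest rises among genes at 10 or more copies that moved one way in all 3 runs joined messages of unlike function. Elobl, a relative of the transcription elongation factor subunit elongin B, was at 0.508, 1.04 and 20.8 copies in the lowest, median and highest oocyte and at 2.05, 34.5 and 111 in the lowest, median and highest zygote. Its log2 fold change was 2.91 ± 0.31 (SE, adjusted p = 7.79e-09). The highest oocyte was oocyte 6 and the next reached 3.71, while the 3 zygotes of run 3 were the lowest, so that the groups overlapped through those cells. Zfp57, the KRAB zinc finger protein that keeps DNA methylation at imprinted genes, was at 7.23, 14.6 and 89.1 copies in oocytes and 23.3, 73.2 and 177 in zygotes, a log2 fold change of 1.81 ± 0.18 (adjusted p = 2.60e-09). Dad1, a subunit of the oligosaccharyltransferase that glycosylates proteins in the endoplasmic reticulum, was at 6.33, 9.67 and 95 copies in oocytes and 11.0, 74.0 and 119 in zygotes (log2 fold change 1.90 ± 0.23). In both genes the highest oocyte was oocyte 6, and the next was at 23.5 copies for Zfp57 and 25 for Dad1.

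G6pdx, which encodes the first enzyme of the pentose phosphate pathway, rose by 2.2 ± 0.31 on the log2 scale, from a median of 1.02 copies in oocytes to 19.8 in zygotes. Kdm2b, a histone demethylase that also recruits a Polycomb complex, rose by 1.95 ± 0.21, from a median of 3.25 to 23.9 copies. Lsm10, part of the U7 particle that processes histone messages, rose by 1.82 ± 0.31, from 0.808 to 9.99 copies. The mitotic and transport genes Cenpf (1.77 ± 0.25), Dync1i2, a dynein chain (1.51 ± 0.22), and Sec22a, a gene of vesicle transport (1.67 ± 0.22), were in the same set, as were Cfl1, the actin-severing protein cofilin (1.79 ± 0.22), Oser1 (2.06 ± 0.25) and the uncharacterised AU015836 (2.16 ± 0.28). These 12 genes were chosen among those that moved one way in all 3 runs, and in run 2 the log2 difference was only 0.28 for Kdm2b, 0.32 for Dad1 and 0.27 for Sec22a.

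The largest fall by the same rule was that of Mos, the kinase that holds the egg in metaphase II. It was at 34.5, 84.0 and 145 copies in the lowest, median and highest oocyte and at 3.62, 12.4 and 70.6 in zygotes, a log2 fold change of -1.85 ± 0.19 (adjusted p = 5.89e-09). The 6 zygotes of runs 1 and 2 were between 3.62 and 13.4 copies and the 3 of run 3 were between 45.8 and 70.6, within the range of the oocytes. Sumo2, a ubiquitin-like modifier, was at 110, 157 and 188 copies in oocytes and 47.4, 67.0 and 116 in zygotes, and only 1 zygote of run 3 reached above the lowest oocyte (-1.12 ± 0.11).

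The 12 largest falls were chosen by their size in these same cells. Among them, 1110059G10Rik and Blvra had no overlap between the stages, which does not measure how often that occurs among all genes tested. The uncharacterised gene 1110059G10Rik was at 37.0 to 64.2 copies in the oocytes and 14.9 to 30.3 in the zygotes (-0.97 ± 0.13), and it alone of these 12 genes fell most within run 3, by a log2 difference of -1.22 there. Blvra, the biliverdin reductase that remakes bilirubin, was at 20.4 to 39.5 copies in oocytes and 3.62 to 20.3 in zygotes (-0.91 ± 0.17). The others were Tmem59 (-1.19 ± 0.16), Tpra1 (-1.12 ± 0.18), Saraf, a regulator of store-operated calcium entry (-1.11 ± 0.20), the autophagy gene Atg16l1 (-1.09 ± 0.20), the phosphodiesterase gene Gdpd1 (-1.04 ± 0.16), the laminin gene Lamb1 (-0.99 ± 0.17), Gdf9 and 9130409I23Rik (-0.90 ± 0.19).

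**Figure D3:**
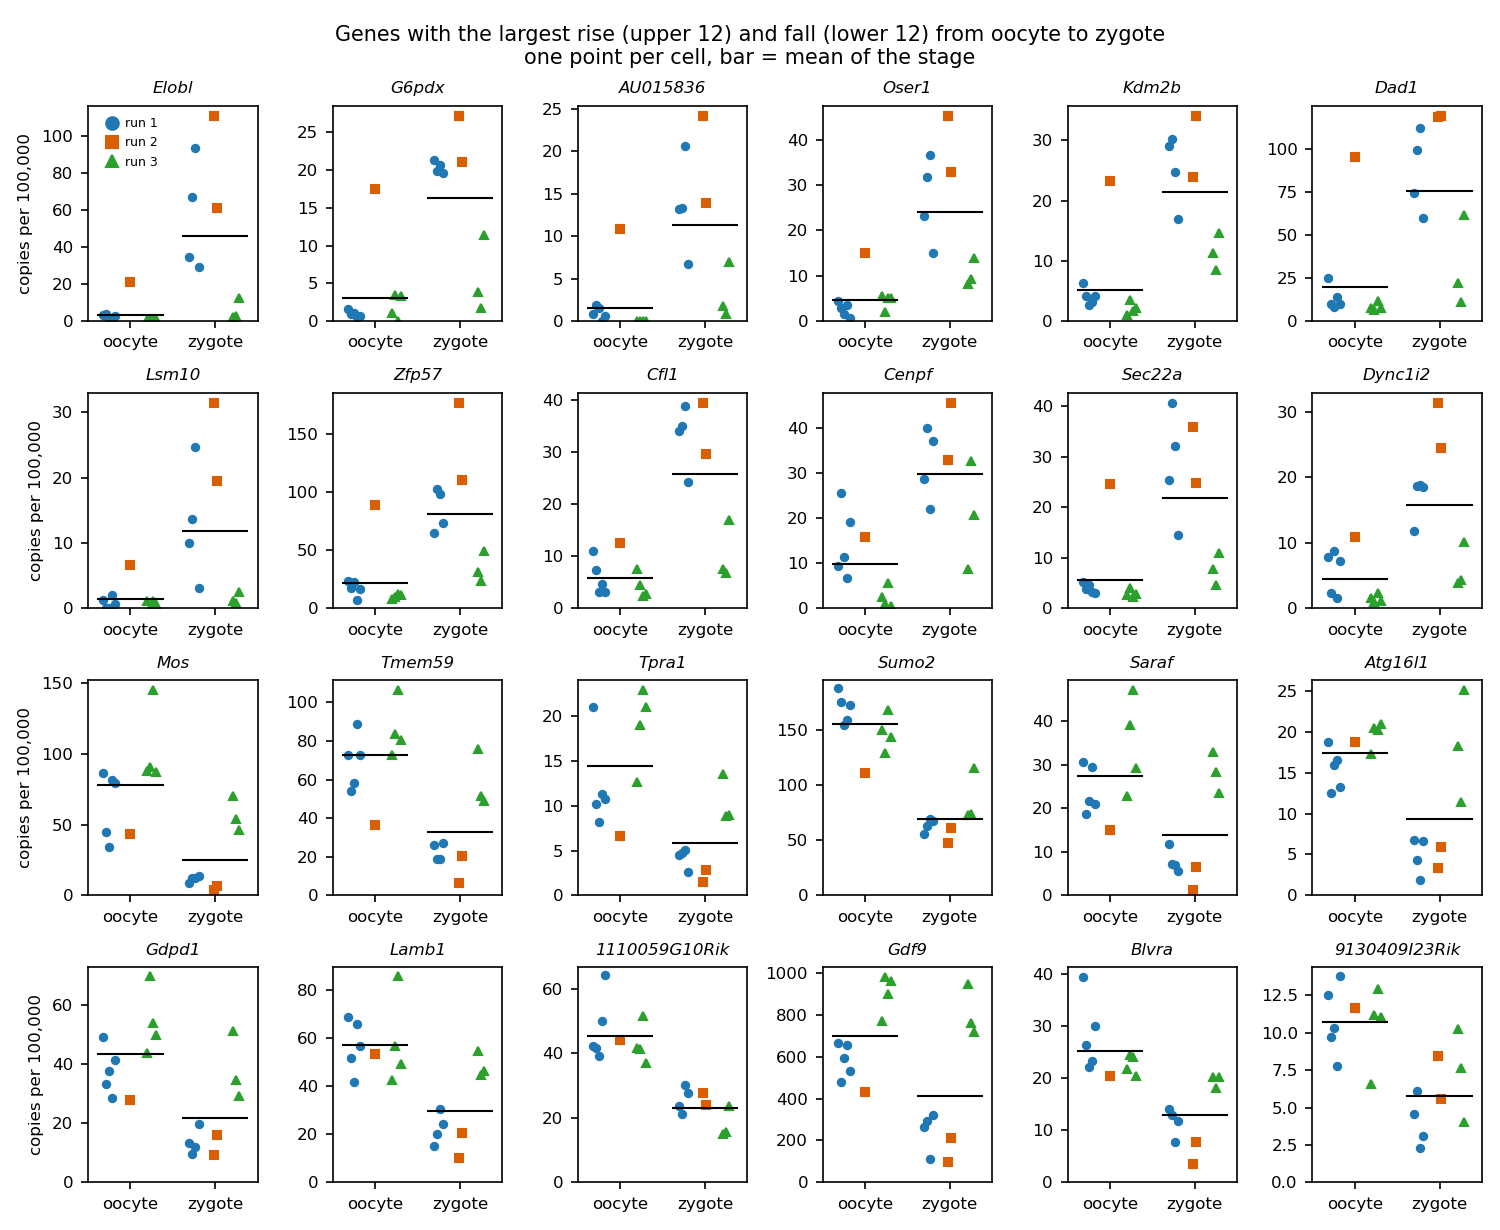
Copies per 100,000 UMIs of the 12 genes with the largest rises (upper rows) and the 12 with the largest falls (lower rows), one point per cell with colour and shape giving the run, and bars at the stage means. Oocyte 6 is the highest oocyte in most rising genes, and the run 3 zygotes lie nearest to the oocytes in most of both sets, with 1110059G10Rik and Blvra free of overlap.

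**Figure D4:**
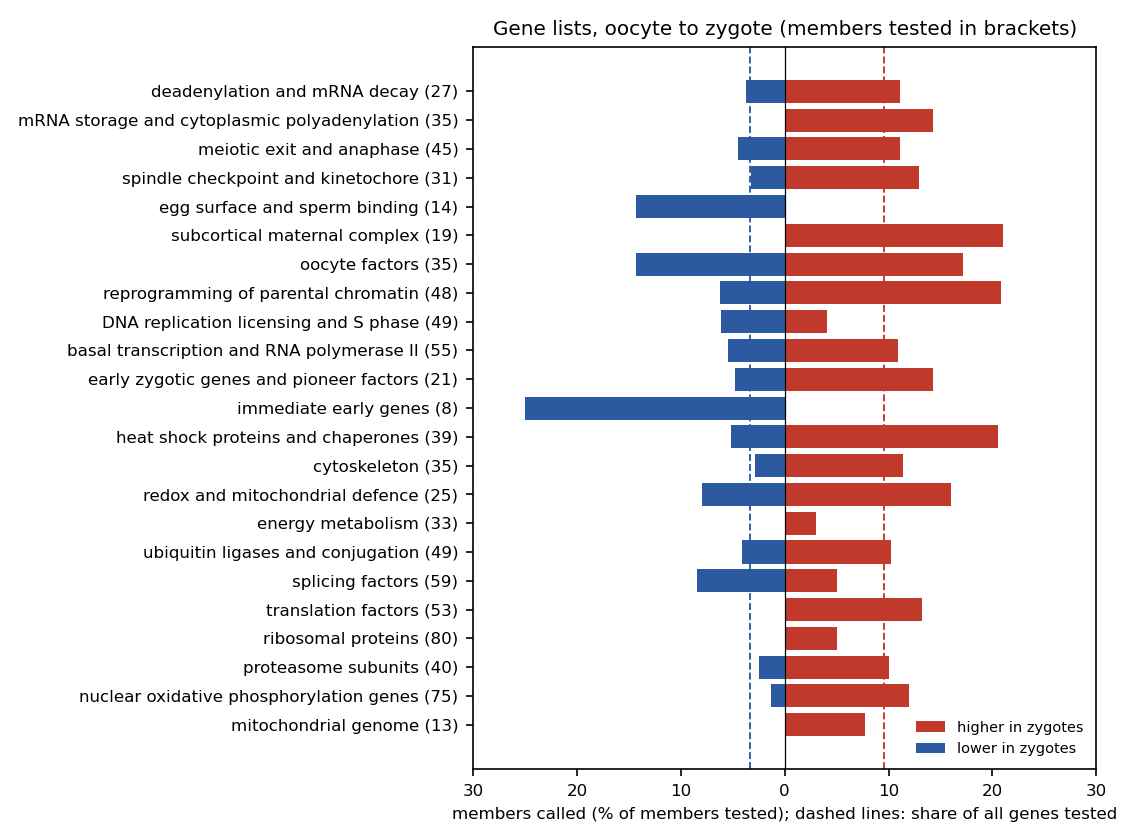
Share of the tested members of each gene list that was called higher (red) or lower (blue) in zygotes, as percent, with the number tested in brackets and dashed lines at the shares of all genes tested, 9.53% and 3.31%. Rises made up 10 of 48 chromatin genes, 8 of 39 chaperone genes and 4 of 19 subcortical complex genes, and falls 5 of 35 oocyte factors.

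Genes were then read by function, from lists written with earlier results of these data known. Counts of called members stand beside the background of 9.53% higher and 3.31% lower, with no test of a list. Of 27 tested genes of deadenylation and decay, the machinery that clears maternal RNA, 3 were higher and 1 was lower, shares near those of all genes. Btg4, the adaptor that brings CCR4-NOT to maternal messages, was at 764 ± 63.4 copies in oocytes and 863 ± 102 in zygotes (log2 fold change 0.16, adjusted p = 0.166), and Cnot7, a deadenylase, was at 111 ± 30.7 and 96.3 ± 27.7 (adjusted p = 0.340). The deadenylase gene Parn (0.79), Cnot3 (0.60) and the decapping enzyme Dcp2 (0.45) were higher, and the decapping cofactor Dcp1a was lower (-0.50).

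Of 35 tested genes of mRNA storage and cytoplasmic polyadenylation, 5 were higher and none was lower. They were Pabpc1l, the poly(A)-binding protein of the egg (1.53 ± 0.29), Eif4e1b, its cap-binding protein (1.03 ± 0.22), the RNA-storage protein Ybx2 (0.93), Zar1l (0.74) and Stau1 (0.58). Pabpc1l was at 0 to 3.33 copies in oocytes and 0.423 to 13.3 in zygotes, and Eif4e1b at 1.66 to 9.26 and 3.85 to 20.8. Both genes overlapped between stages. Zar1, which binds stored messages, was far more abundant, at 129 ± 33.4 and 142 ± 66.6 copies, and did not pass the test (adjusted p = 0.676).

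Genes that hold or release the metaphase II arrest gave 5 rises and 2 falls among 45 tested. Besides Mos, the anaphase-promoting complex subunit gene Cdc26 was lower (-0.75). Cdk1, the kinase of mitosis-promoting factor, rose from 1.70 ± 0.67 to 3.69 ± 0.85 copies (0.83 ± 0.22, adjusted p = 0.00791), and the calcium-dependent kinase gene Camk2g, which acts at egg activation, rose from 3.55 ± 1.55 to 7.91 ± 1.99 (0.96 ± 0.21). The most abundant members did not pass the test: securin, Pttg1, was at 1095 ± 175 and 987 ± 131 copies, Cks2 at 447 ± 27.7 and 448 ± 26.7, and cyclin B1, Ccnb1, at 274 ± 68.6 and 241 ± 39.0. Fbxo43, which encodes the arrest factor Emi2, was at 11.2 ± 2.45 and 13.0 ± 3.70 copies (adjusted p = 0.448).

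Among 31 genes of the spindle checkpoint and kinetochore, 4 were higher and 1 was lower. Birc5, the survivin subunit of the chromosomal passenger complex, was at 18.5, 26.8 and 117 copies in the lowest, median and highest oocyte and at 29.5, 105 and 179 in zygotes (1.23 ± 0.15, adjusted p = 2.01e-07). Bub1 (0.79) and Cdca5 (0.54) were higher with Cenpf. The checkpoint kinase Bub1b was at 94.7 to 140 copies in oocytes, between 26.3 and 69.0 in the zygotes of runs 1 and 2, and between 94.1 and 145 in the zygotes of run 3 (-0.73 ± 0.15, adjusted p = 0.000601). Its log2 difference was -1.02 within run 1 and 0.02 within run 3.

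Of 35 oocyte factors tested, 6 were higher and 5 were lower. The paired growth factors of the oocyte moved apart as genes: Gdf9 fell from 697 ± 199 to 414 ± 311 copies (-0.93 ± 0.16, adjusted p = 5.81e-05) while Bmp15 rose from 44.2 ± 18 to 82.2 ± 48.9 (0.55 ± 0.16, adjusted p = 0.0189). Of 3 tested Bmp15 isoforms, the longest, PB.78794.11 (3200 bases), was at 7.56 and 4.68 copies (-0.74, adjusted p = 0.216). The 1 called, PB.78794.124 (906 bases), was at 0 and 0.967. The rise of Bmp15 was therefore not shown for its longest tested isoform. The fall of Gdf9 came mostly from runs 1 and 2, whose zygotes were at 98.8 to 319 copies. In run 3 the zygotes were at 717 to 947 copies and the oocytes at 769 to 982. H1foo, the linker histone of the oocyte and one of its most abundant messages, was at 1140, 1597 and 1864 copies in the lowest, median and highest oocyte. It was between 331 and 888 copies in the zygotes of runs 1 and 2 and between 1686 and 1903 in those of run 3, so that its fall (-0.72 ± 0.13, adjusted p = 0.000168) came from runs 1 and 2 and the difference was 0.15 within run 3. Plat, tissue plasminogen activator, was likewise at 9.36 to 32.2 copies in the zygotes of runs 1 and 2 but at 90.2 to 144 in those of run 3, against 55.4 to 103 in the oocytes (-0.93 ± 0.20). Oas1h (0.82), Oog4 (0.74), Nobox (0.67), Npm2 (0.53) and Oog1 (0.42) were higher, and Spire1 (-0.37) and Oog3 (-0.30) were lower. Oog genes belong to a family of near-identical copies, and reads could be divided among them.

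The subcortical maternal complex, a structure under the egg membrane needed for the first cleavages, had 4 rises and no fall among 19 tested genes. Ooep was at 6.09, 14.8 and 32.9 copies in the lowest, median and highest oocyte and at 6.35, 56.8 and 129 in zygotes (1.37 ± 0.22, adjusted p = 3.21e-05), and Nlrp14 (0.99 ± 0.22) and Tle6 (0.99 ± 0.24) rose with it and with Cfl1. The log2 difference of Ooep was 2.10 in run 1 and 0.25 in run 3. The Ooep isoform PB.77012.90 (993 bases) went from a mean of 15.4 copies in oocytes to 70.2 in zygotes. It holds no polyadenylation signal near its end, nor do the called isoforms PB.77012.112, PB.77012.83 and PB.77012.89. The rise of Ooep therefore does not measure messages that end after such a signal. Nlrp5, the scaffold of the complex also called MATER, was at 8.25 ± 3.94 and 11.2 ± 4.48 copies (adjusted p = 0.302), and the abundant Zbed3 at 876 ± 129 and 806 ± 181 (adjusted p = 0.601). At the egg surface, 2 of 14 genes were lower and none was higher. Astl, the protease ovastacin that cleaves the zona pellucida after fertilization, fell from 12.5 ± 5.73 to 6.66 ± 4.94 copies (-0.86 ± 0.21), and the integrin Itga6 had no overlap between the stages, at 20.2 to 29.2 copies in oocytes and 8.46 to 19.5 in zygotes (-0.56 ± 0.14). The zona protein gene Zp3 was at 9.91 ± 8.10 and 16.2 ± 9.70 copies (adjusted p = 0.334).

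Genes that act on parental chromatin gave 10 rises and 3 falls among 48 tested. With Zfp57, the maintenance methyltransferase Dnmt1 rose from 11.6 ± 5.58 to 26.7 ± 11.7 copies (1.07 ± 0.18, adjusted p = 5.85e-05) and did so in each run. Kmt2d (0.91), Top2a (0.88), Chaf1a (0.75), H3f3a (0.59), Nap1l4 (0.58), Srpk1 (0.54) and the histone chaperone Npm2 (0.53 ± 0.16) were also higher. H3f3b, which encodes the same histone H3.3 protein as H3f3a, was lower, at 513 ± 54.2 copies in oocytes and 404 ± 49.1 in zygotes (-0.32 ± 0.08, adjusted p = 0.00742), as was the H3 chaperone gene Asf1a (-0.42). Dppa3, whose protein STELLA guards maternal methylation, was at 1117 ± 193 and 1001 ± 146 copies (adjusted p = 0.201), and Tet3, which oxidises methylcytosine in the zygote, at 70.7 ± 10.6 and 60.7 ± 18.2 (adjusted p = 0.285).

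Genes for the folding, synthesis and turnover of proteins came next. Of 39 chaperone genes, 8 were higher and 2 were lower. Hsp90aa1 was at 16.1, 71.7 and 135 copies in the lowest, median and highest oocyte and at 44.1, 166 and 328 in zygotes (1.19 ± 0.17, adjusted p = 4.52e-06), and its log2 difference was 0.86, 1.06 and 1.67 in runs 1, 2 and 3. Much of the Hsp90aa1 level lay in short isoforms that match part of the annotated message and hold no polyadenylation signal near their end. PB.18355.252 (1004 bases) went from a mean of 42.6 to 102 copies and PB.18355.238 (1062 bases) from 26.2 to 59.4. The longer called isoform PB.18355.19 (2933 bases) was at 2.22 and 5.19. The gene's rise therefore does not measure its full-length message. The endoplasmic reticulum chaperones Pdia4 (1.08), Hsp90b1 (1.02), Hspa5 (0.95) and Calr (0.85) were higher, whereas Pdia6 (-0.63) and Dnajb11 (-0.69), of the same compartment, were lower. Hspa1b, an inducible heat shock gene known for early transcription in the mouse embryo, had 1 UMI in zygote 5 and none in the other 18 cells.

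Of 53 translation factor genes, 7 were higher and none was lower, led by Eef2k, a kinase that slows elongation (1.44 ± 0.20), and Eif5b (1.04 ± 0.17). Ubiquitin genes gave 5 rises and 2 falls of 49, with the ubiquitin-activating enzyme Uba1 at 7.92 ± 5.14 and 20.7 ± 5.34 copies (1.27 ± 0.18) and the conjugating enzyme Ube2d3 at 434 ± 101 and 316 ± 99.6 (-0.39 ± 0.10). The remaining rises of that list were Fbxw15, Fbxw16, Fbxw21 and Fbxw26, members of an F-box family with near-identical copies.

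Of 80 ribosomal protein genes, 4 were higher and none was lower, and of 40 proteasome genes 4 were higher and 1 was lower. Nuclear genes of oxidative phosphorylation gave 9 rises and 1 fall of 75, while the 13 genes of the mitochondrial genome gave 1 rise, mt-Cytb (0.34 ± 0.10). Splicing factors gave 3 rises and 5 falls of 59, with Sf3b5 lower (-0.84 ± 0.16) and Sf3b3 higher (1.14 ± 0.26), both subunits of the U2 particle. Genes of DNA replication gave 2 rises and 3 falls of 49, and basal transcription genes 6 rises and 3 falls of 55. Energy metabolism gave 1 rise of 33, the lactate dehydrogenase gene Ldhb (160 ± 103 and 327 ± 109 copies, 0.96 ± 0.14). Redox genes gave 4 rises, Sod1 (1.2), Glrx5 (1.11), Glrx (0.88) and Prdx2 (0.62), and 2 falls, Blvra and Prdx1 (-0.36), of 25. Of 35 cytoskeletal genes 4 were higher, among them Pfn1, the actin-binding profilin (1.12 ± 0.17), and 1 was lower.

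Of 44 early zygotic genes and pioneer factors in the table, 21 passed the filter, and of these 3 were higher and 1 was lower. Tcstv1 rose from 12.8 ± 9.08 to 32.5 ± 19.4 copies (1.05 ± 0.22) and Tcstv3 from 1.96 ± 2.61 to 6.55 ± 4.78 (1.15 ± 0.28); both belong to a family of near-identical genes and both were already present in oocytes. Klf17 was higher (0.58 ± 0.18) and the subunit Nfyb of the CCAAT-binding factor NF-Y was lower (-0.84 ± 0.23). Obox1, Obox2 and Obox5, homeobox genes stored in the egg, were at 279 to 611 copies on average in oocytes and 308 to 636 in zygotes and did not pass the test. Of the 8 immediate early genes tested, Btg1 (-0.67) and Dusp1 (-0.51) were lower and none was higher.

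Early 2-cell blastomeres, taken 30 to 32 h after hCG, give the next point of the series for the same genes. They were 10 blastomeres in sister pairs from 5 embryos, so that they are not 10 independent samples. Mean levels over the blastomeres were 2.72 copies for Mos, 10.1 for Sumo2, 42.9 for Gdf9, 109 for H1foo, 9.87 for Plat and 3.27 for Bub1b, each below the zygote mean. Levels of Cfl1 (85.8), Oser1 (75.4), Kdm2b (55.6) and G6pdx (51.0) were above the zygote mean, whereas Elobl (29.1) and Cenpf (13.4) were below it. Their run is not given in the sources used here, so no test was made.

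The number of genes seen per cell rose from 8721 ± 514 in oocytes to 10150 ± 851 in zygotes, a difference of 1262 within runs (two-sided exact permutation within runs, p = 7.56e-05, the lowest possible with 13230 arrangements). Zygotes also held more UMIs, by 60680 (exact permutation p = 0.00378), but not clearly so within run 1 (22180, exact permutation p = 0.365). With each cell thinned to 166731 UMIs, the difference in genes was 673 (exact permutation p = 0.000151), though within run 3 alone the exact permutation p was then 0.0857. The share of UMIs in full splice matches was 73.8% ± 1.15 in oocytes and 73.5% ± 1.12 in zygotes, and no structural class passed the test over all 3 runs (exact permutation tests, adjusted p between 0.201 and 0.921). The runs went opposite ways, however. In run 1 full splice matches were higher in zygotes by 0.813 percentage points and incomplete splice matches lower by 1.13, without passing the test (exact permutation p = 0.262 and 0.0952). In run 3 full splice matches were at 74.7% to 75.1% in oocytes and 71.6% to 73.3% in zygotes, and incomplete matches at 14.4% to 14.9% and 16.4% to 18.3%, with no overlap (exact permutation p = 0.0286 for each, the lowest possible, and 0.0714 after adjustment over the classes). The mean isoform length weighted by UMIs was 1414 ± 84.7 and 1390 ± 58.5 bases (difference -14.9, exact permutation p = 0.490).

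At the level of isoforms, 14113 of 68012 passed the filter and 471 (3.34%) changed at a limma adjusted p under 0.05: 340 (2.41%) from 246 genes were higher in zygotes and 131 (0.928%) from 109 genes were lower. By edgeR on the recovered UMIs the split was 437 higher and 78 lower. Of the 349 genes with a called isoform, 256 (73.4%) were also called as genes, and these were 25.3% of all genes called. Full splice matches to the annotation made up 61.2% of rising and 64.1% of falling isoforms against 40.2% of those tested. The falling isoforms were longer, with a median of 1631 bases against 1230 for rising isoforms and 1284 for all tested. A shift in the use of isoforms within a gene was called in 1 of 3411 genes (0.0293%), the RNase gene Rnaset2b, where PB.31591.6 fell from 91.5% ± 8.24 to 59.3% ± 21.4 of the gene's copies. Only 5 to 27 UMIs of this gene were counted per cell, and without run as a term it was not called.

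The isoforms with the largest rises belonged mostly to the genes above. PB.13219.4 of Elobl, a full splice match of 1327 bases, was at 0, 1.07 and 22.0 copies in the lowest, median and highest oocyte and at 1.53, 31.8 and 112 in zygotes (3.01 ± 0.29, adjusted p = 3.57e-13), and 6 of 7 tested Elobl isoforms rose. PB.3756.15 of Aspm, a spindle pole gene, a new combination of known splice sites with 10 exons and 1939 bases, was at 0.545 to 5.49 copies in 9 oocytes, 13.4 in oocyte 6 and 25.5 to 39.2 in the zygotes of runs 1 and 2. In run 3 it was at 1.30 to 7.61 copies in zygotes, so that the difference there was -0.04. PB.20204.74 of Spin1, a reader of histone marks that acts in meiosis, rose by 1.89 ± 0.27.

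Among falling isoforms PB.45537.2 of Pfdn4, a prefoldin subunit, was the most abundant of those named, at 151, 297 and 427 copies in the lowest, median and highest oocyte and at 65.4, 119 and 266 in zygotes (-1.29 ± 0.14, adjusted p = 5.09e-11), with a difference of -1.2 within run 3. PB.50099.4 of Mos, the single-exon message of 1452 bases, fell by -1.92 ± 0.19 on the log2 scale. All 6 called isoforms of H1foo (of 22 tested), all 4 of Lamb1 (of 9) and all 3 of Sumo2 (of 5) were lower. PB.13093.21 of Gdpd1 (-1.29 ± 0.26), PB.52600.1 of Tmem59 (-1.33 ± 0.18) and PB.70709.2 of Plat (-1.22 ± 0.25) followed their genes. Btg4, which did not pass as a gene, had 2 of 34 tested isoforms higher and none lower.

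Rising and falling isoforms differed at their 3′ ends. Most mammalian messages are cut and polyadenylated a short way after AATAAA or its common variant ATTAAA. One of these was found on the transcript strand in the final 100 bases of 8046 of 9740 tested isoforms whose bases were known (82.6%), of 59 of 64 falling isoforms (92.2%, exact 95% interval 82.7 to 97.4) and of only 97 of 245 rising isoforms (39.6%, 33.4 to 46.0). Isoforms of 1 gene can share an end, and with the most abundant isoform of each gene alone the shares were 81.9% of 3282 tested, 92.7% of 55 falling and 45.2% of 177 rising isoforms. The rising isoforms had the lowest share at each level and each length: among isoforms under 1000 bases it was 28.9% against 78.6% of those tested, and among isoforms of 2000 bases or more 60.0% against 89.3%. It was 46.1% for the isoforms called without oocyte 6 and 48.2% for those called in run 1 alone. The share of falling isoforms was 91.8% without oocyte 6 but 84.1% in run 1 alone, near that of all tested isoforms. The cytoplasmic polyadenylation element, TTTTAT or TTTTAAT, was found in 7.76% of rising, 31.3% of falling and 32.4% of tested isoforms, and the Pumilio element TGTANATA in 4.49%, 6.25% and 6.14%. The form TTTTAAT can share bases with AATAAA, and in the Bub1b end above TTTTAT stands directly before AATAAA.

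The same was seen cell by cell and without choosing isoforms by their change. The share of UMIs in isoforms without a polyadenylation signal, over those whose final 100 bases were known and with the mitochondrial genes and genes over the ribosomal RNA locus left out, was 14.6% ± 2.04 in oocytes and 18.4% ± 3.16 in zygotes. Within run 1 the oocytes were at 14.1% to 17.6% and the zygotes at 18.9% to 22.5%, within run 2 oocyte 6 was at 14.5% and the zygotes at 19.2% and 21.7%, and within run 3 the oocytes were at 11.8% to 13.1% and the zygotes at 13.7% to 16.0%. The stages overlapped across runs but not within any run, and the difference within runs was 3.5 percentage points (exact permutation p = 7.56e-05, the lowest possible). With the mitochondrial and ribosomal RNA locus genes kept, the difference was 3.81 (exact permutation p = 0.000227), but in run 3 alone it then missed the threshold (exact permutation p = 0.0857). It was 3.08 without oocyte 6 (exact permutation p = 0.000227) and 2.52 with the called isoforms left out (exact permutation p = 7.56e-05), which in run 3 alone also missed the threshold (1.33, exact permutation p = 0.0571). Within single genes, the mean share over 532 genes went from 18.7% to 21.2%, a difference of 2.36 within runs (exact permutation p = 7.56e-05). In early 2-cell blastomeres the mean share of UMIs was 18% (10 blastomeres of 5 embryos).

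**Figure D5:**
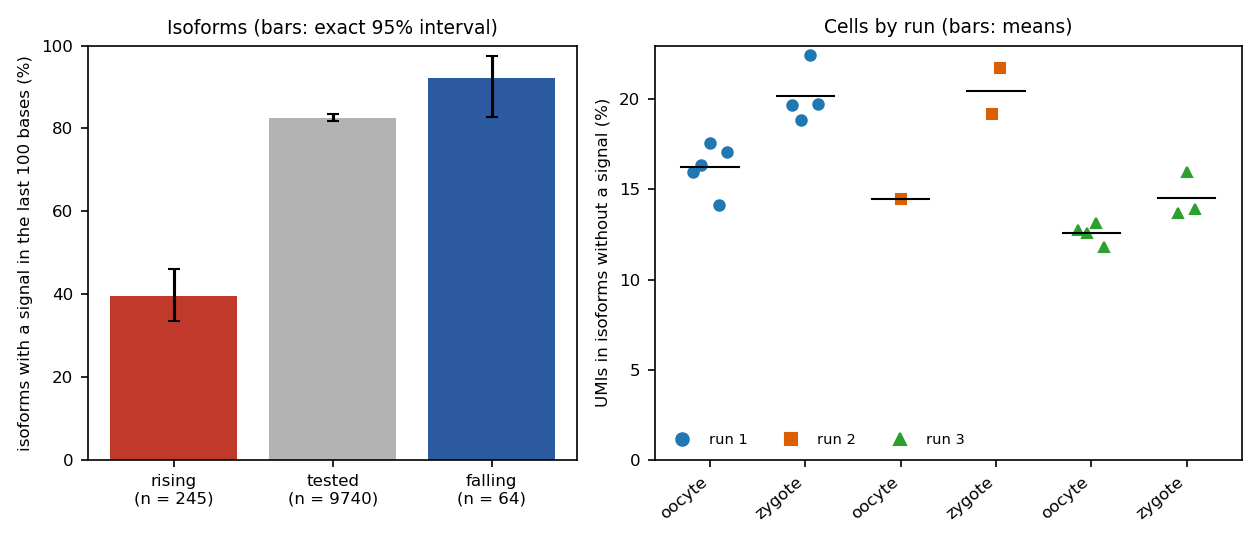
Left, percent of rising, tested and falling isoforms with AATAAA or ATTAAA in the final 100 bases, with exact 95% intervals that treat isoforms as independent. Right, percent of each cell's UMIs in isoforms without a signal by run and stage, bars at the means; zygotes lie above the oocytes of the same run in all 3 runs.

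Other measures of where these molecules end were taken as well. An end followed by at least 12 A among the next 20 transcribed bases, where oligo-dT can prime inside a message, was found for 10.6% of rising, 4.23% of tested and 0 of 47 falling isoforms, which allows a share of up to 6.38%. The share of UMIs with such an end went from 2.22% ± 0.491 to 3.16% ± 0.763 (0.841 within runs, exact permutation p = 0.000227), with an exact permutation p of 0.0571 in run 3 alone. Ends lying over 50 bases before the nearest annotated end made up 22.9% of rising, 15.5% of tested and 9.92% of falling isoforms. Gm42418, an annotation over the ribosomal RNA locus, was at a mean of 137 copies in oocytes and 437 in zygotes of run 1, but at 138 and 133 in run 2 and at 32.4 and 36.9 in run 3. The part of these measures in the rise of ends without a signal was not tested.

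In 6 genes, isoforms tested singly were called in both directions. None of the 6 was called by the test of isoform use within a gene, which called only Rnaset2b. In 5 of them, A530040E14Rik, Dazl, Esco2, Rdx and Spin1, the isoform that fell was longer and ended further downstream. In Spin1 5 isoforms of 878 to 1551 bases rose and 1 of 4162 bases fell, from 9.02 ± 7.91 to 2.94 ± 3.90 copies, and its end lay 2607 to 3271 bases beyond theirs. Dazl, an RNA-binding protein of germ cells, did not pass the test as a gene (63.2 ± 14.6 and 63.9 ± 25.4 copies, adjusted p = 0.706), while its isoform of 3073 bases fell from 29.5 ± 16.9 to 14.7 ± 12.7 copies and one of 1396 bases, ending 1611 bases earlier, rose from 6.50 ± 3.69 to 23.9 ± 19.5. Rdx, the actin-membrane linker radixin, did not pass either (158 ± 54.9 and 174 ± 43.9 copies, adjusted p = 0.484), with an isoform of 1150 bases at 35.8 ± 23.1 and 56.4 ± 26.7 copies (0.82 ± 0.22) and one of 4206 bases at 2.86 ± 2.25 and 0.588 ± 0.854 (-1.25 ± 0.32). H3f3b was the exception, in that its 2 falling isoforms ended between 101 bases before and 306 bases after the 2 rising ones: PB.14747.101 fell from 83.7 ± 33.2 to 29.3 ± 10.7 copies, and PB.14747.142, which ends between the falling forms, rose from 8.04 ± 2.77 to 16.1 ± 7.63.

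The changes of run 1 were looked up in run 3, whose cells had no part in choosing them. Of the 717 genes higher in run 1 zygotes, 573 (79.9%) were also higher in run 3, against 61.1% of all genes tested, and of the 315 lower genes 203 (64.4%) were lower, against 38.8% of all. Of 214 isoforms higher in run 1, 176 (82.2%) were higher in run 3, against 56.1% of all, and of 98 lower isoforms 70 (71.4%) were lower, against 43.3%. In run 3 the median log2 difference was 0.38 for the 717 genes and -0.14 for the 315 genes. The medians in run 1, 1.12 and -0.85, are raised in size by the choice of genes in that run and cannot be set against them. Run 3 alone gave 30 called genes and no called isoform by limma.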

How the data were processed

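Single metaphase II oocytes, zygotes and early 2-cell blastomeres were profiled by HIT-scISOseq. The authors used SMRT-Link for consensus reads, scISA-Tools to find each read's barcode and UMI, and minimap2 for alignment to mm10. They named genes with gffcompare, collapsed isoforms with cDNA_Cupcake and classified and filtered them with SQANTI3. The deposited values are CPM divided by 10, that is copies per 100,000 UMIs of a cell, and the 8-cell and later columns hold such CPM values too. In the columns used here the deposited score of each gene or isoform was a whole multiple of the value of 1 UMI (tolerance 0.1 UMI), so that UMIs could be recovered. The stage of each cell was read from its column name. The sequencing run came from the study's supplementary barcode lists.

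Values were tested as log2(value + 1) with limma 3.58.1 in R 4.3.3, with trend and with run and stage as terms, for genes or isoforms at 1 copy or more in at least 4 of 19 cells, and p-values were Benjamini-Hochberg adjusted over all features tested. A fold change on this scale understates the change of low genes. Isoform use was tested on arcsine square root shares of genes with isoforms in at least 3 oocytes and 3 zygotes, at a gene adjusted p under 0.01. Single values per cell were compared by two-sided exact permutation within runs. Since the donor of each cell is not given, p-values measure only the spread between these cells. edgeR 4.0.16 and DESeq2 1.42.0 on recovered UMIs were alternatives, and Python 3.11.15 was used for the rest. The tests were tested on simulated data with 200 changed features. The gene test recovered 40.0% of 2-fold and 80.5% of 4-fold changes among 7887 genes. The isoform test recovered 6.0% and 54.5% among 14113 isoforms, and the isoform use test 38.0% of exchanged pairs among 3411 genes. Of the 92 exchanged pairs that differed by 3 times or more, the isoform use test recovered 75.0%. The simulation for isoform use held counting error only, without the spread between cells and the run effect of the others. Its 38.0% and 75.0% may therefore overstate recovery in these cells.

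Genes named were the 12 largest rises and 12 largest falls that passed the test at 10 copies or more in the higher stage with 1 direction in all 3 runs, a set of genes of known roles, and in each list up to 4 members that passed and the 3 at the highest level. Isoforms named by rule were the 8 largest rises and 8 largest falls that passed the test at 5 copies or more with 1 direction in the means of all 3 runs. The members and lists were chosen with earlier results of these data known. Some further list members that passed are named as examples, and 1 chromatin gene is not reported here. The share of UMIs without a polyadenylation signal, the run 1 genes followed by cell, the ends after the isoform and the genes with isoforms moving both ways were chosen after seeing the data.

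The final 100 bases of isoforms were rebuilt by coordinate from GENCODE vM21 transcripts on GRCm38/mm10. They were known for 54443 of 68012 isoforms, which held 49.4% of the isoform UMIs in oocytes and 50.5% in zygotes. Reads of near-identical genes (Tcstv, Oog, Obox, Fbxw, Nlrp and Oas families) may be divided among copies. Intervals cover counting error only.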

Additional observations from a re-analysis of the deposited data

Results flagged for a closer look

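Of 206 groups of cells examined, 30 held a cell whose gap to the nearest other cell of its stage passed Dixon's limit. About 1 in 20 independent groups of normal values would pass it. These groups repeat the same cells and pair genes with their own isoforms, so the count does not measure an excess over chance. Values are copies per 100,000 UMIs, each beside the nearest other cell. Most were oocyte 6, the oocyte of run 2. Among genes it was at 20.8 for Elobl (next 3.71), 17.5 for G6pdx (3.41), 10.8 for AU015836 (1.86), 15.0 for Oser1 (5.58) and 23.3 for Kdm2b (6.25). It was also at 95 for Dad1 (25), 6.67 for Lsm10 (2.07), 89.1 for Zfp57 (23.5), 24.6 for Sec22a (5.08) and 31.2 for Zp3 (12.7). Among isoforms it was at 22.0 for PB.13219.4 of Elobl (4.36), 64.8 for PB.33295.14 of Zfp57 (10.4), 13.4 for PB.45060.4 of Oser1 (6.27) and 136 for PB.23786.1 of Dad1 (34.9). The same cell was at 5.50 for PB.20204.74 of Spin1 (1.46), 13.4 for PB.3756.15 of Aspm (5.49) and 4.28 for PB.53429.8 of Lsm10 (1.54). Its summed level was 1029 for energy metabolism genes (832) and 43.7 for late 2-cell markers (24.2).

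Zygote 9, of run 3, stood apart from the other zygotes in the summed level of mRNA storage genes, 736 against 580, and of meiotic exit genes, 2755 against 2500. It was also high in Sumo2, 116 against 73.6, and in Zar1, 304 against 170. Zygote 7 was at 4.97 against 1.95 for PB.42828.21 of Accsl, of which oocyte 8 held 16.3 against 7.05. Oocyte 9 was at 145 against 91.1 for Mos and 184 against 112 for its isoform PB.50099.4. Oocyte 1 was at 39.5 against 30.0 for Blvra, oocyte 7 at 1494 against 1036 for ribosomal protein genes, and zygote 5 at 0.302 (1 UMI) against 0 for Hspa1b. What sets these cells apart was not tested.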

How the results depend on the processing

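The 1013 genes called became 635 with no filter on low values, 193 under the study's limits and 30 in run 3 alone, and 761 to 1100 with 1 cell left out. Other tools gave 908 by edgeR, 775 by DESeq2, 1009 after TMM scaling (652 higher, 357 lower) and 779 without run as a term. The 471 isoforms became 259 without run, 268 under the study's limits, 312 in run 1 alone and 0 in run 3 alone, and 323 to 535 with 1 cell left out. A stricter filter gave 423 genes higher and 255 lower. The isoform switch was called in 0 genes without run, with untransformed shares or with 6 cells per stage required, and in 0 to 2 with 1 cell left out: 0 without oocyte 1, 4 or 5 and 2 without zygote 9. Within run 1 alone the zygotes held 22180 more UMIs (exact permutation p = 0.365) and 1797 more isoforms (exact permutation p = 0.222). Differences in run 3 turned in direction for H1foo (0.15), Bub1b (0.024), Plat (0.35), Btg1 (0.091), Txnip (-1.32, not called over the 3 runs) and the Aspm isoform PB.3756.15 (-0.042), and the cause was not tested. For some lists the stage difference in summed level within 1 run departed from that over all runs by more than the residual SD. In run 1 these were the subcortical complex (-99.9), chromatin (-1160), translation (137), oocyte markers (-1034) and oxidative phosphorylation (180). In run 3 they were storage (116), oocyte factors (-254), chromatin (176), redox (-135), translation (-71.8), oocyte markers (-313) and oxidative phosphorylation (-22.0). Other lists also differed between stages within a run. Over 200 bases the cytoplasmic polyadenylation element was in 53.1% of falling isoforms (exact interval 40.2 to 65.7) and 44.5% of those tested. The tested share lay inside that interval, so no excess among falling isoforms was shown. With up to 30 bases unknown, the polyadenylation signal was in 48.7% of rising isoforms and 85.8% of those tested. Of the named genes and isoforms that were called, 9 kept their call in run 3 alone, 111 kept the direction only and 5 reversed. Under the study's limits 57 kept the call and 68 the direction only, and without run as a term 106 and 19. No paired analysis was possible because the numbers in the cell names count oocytes and zygotes separately and mark no shared animal. With 1 oocyte in run 2 and 7 cells in run 3, small changes there could not be detected.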
